A study of Homo sapiens with 4 samples.

Results

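Inflammasomes are protein complexes that sense infection or cell damage and switch on inflammatory caspases. The 9 genes of this machinery studied here (NLRP1, NLRP3, NLRC4, AIM2, PYCARD, CASP1, CASP4, CASP5 and GSDMD) were chosen by symbol, and all were found among the 23228 genes counted in ES2 cells treated with vehicle or Liq. ES2 is an established line of human ovarian cancer cells. Liq, short for liquiritigenin, is a flavanone from licorice that the study used as an agonist of estrogen receptor β. Cells of both groups were kept in phenol red–free RPMI-1640 with 5% charcoal-treated serum, which holds little estrogen, and received vehicle or 100 μM Liq for 24 h. RNA was sequenced from 2 samples per group, and the sources do not say whether these were separate cultures, so p-values measure only the spread between these samples. All values come from 1 cell line, and in such bulk RNA a lower count can come from fewer cells that express a gene or from less RNA per cell, which cannot be told apart.

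In the canonical route the sensor is of the NLR family (NLRP1, NLRP3 or NLRC4) or is the DNA sensor AIM2. Such a sensor can gather the adaptor PYCARD, also called ASC, which brings in caspase-1. Caspase-1 cuts the precursors of IL-1β and IL-18 and opens gasdermin D, whose N-terminal part forms pores in the plasma membrane. In the noncanonical route caspase-4 and caspase-5 bind bacterial lipopolysaccharide and cut gasdermin D without a sensor of the NLR family. These genes are best known from monocytes and macrophages, although NLRP1, CASP4 and GSDMD are also used by epithelial cells.

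ES2 cells carried mRNA for only some of this machinery. NLRP1, NLRP3, AIM2, CASP1, CASP4 and GSDMD were counted in all 4 samples, whereas PYCARD and CASP5 had 0 counts in every sample and NLRC4 had 0 to 2. With Liq, NLRP3 mRNA was 2.07 times lower than with vehicle, and AIM2 and CASP4 were lower by 1.42 and 1.33 times. NLRP1, CASP1 and GSDMD did not pass the test for a change.

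The libraries held 34573053 to 48933893 counts on genes, so 3 counts, taken as the lowest level that can be told from 0, stand for 0.060 to 0.084 CPM. CPM are counts scaled to library size after TMM normalization, and this limit covers counting error only. Of the 15 genes listed for ovarian carcinoma, epithelium and estrogen receptors, 6 were tested. At 1.5-fold and an adjusted p-value under 0.05, 2 were lower and 0 were higher, against 2.16% and 4.29% of all tested genes. The lineage factors PAX8 (1.19 and 1.23 CPM with vehicle, 0.337 and 0.578 CPM with Liq) and WT1 (4.09 and 4.84 CPM against 2.76 and 2.79 CPM) were the lower genes, by log2 fold changes of -1.34 (adjusted p = 0.002137, edgeR) and -0.68 (adjusted p = 0.002849, edgeR), the latter lost without vehicle replicate 2 (-0.56, adjusted p = 0.07175, edgeR). Under 1.5-fold, the keratin gene KRT7 was higher, at 266 and 238 CPM with vehicle and 378 and 337 CPM with Liq (adjusted p = 1.081e-05, edgeR), and KRT18 was lower, at 204 and 191 CPM against 169 and 166 CPM (adjusted p = 0.01322, edgeR). CDH1, MSLN and FOLR1 had 0 counts in all samples, and EPCAM, KRT19 and MUC16 had 3 or fewer, so several defining epithelial markers were absent. ESR2, which encodes estrogen receptor β, had 4 and 7 counts with vehicle and 5 and 14 with Liq. Of 16 myeloid markers, 5 had 0 counts throughout and PTPRC, which encodes the leukocyte antigen CD45, had 1 count in 1 sample. The summed level of the myeloid list was 2.38 and 2.19 CPM with vehicle and 1.63 and 1.47 CPM with Liq. The 2 of its 3 tested genes that were lower with Liq, CSF1R and LYZ, stayed under 1 CPM in every sample. CSF1R was lost without vehicle replicate 1 (adjusted p = 0.1358, edgeR) and LYZ without any 1 of the 4 samples (adjusted p = 0.06521 to 0.4025, edgeR), and their part in the other changes was not tested.

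The bases just before the transcription start are shown for the 3 genes that were lower with Liq and for 2 genes without a count. Each sequence covers 250 bases that end right before the start, taken from RefSeq and placed in GRCh37 (hg19) by an exact match, and reads 5′ to 3′ on the strand of the gene. NLRP3 lies at chr1:247579225-247579474 on the plus strand, AIM2 at chr1:159046557-159046806, CASP4 at chr11:104839302-104839551, CASP5 at chr11:104893896-104894145 and PYCARD at chr16:31214082-31214331, the last 4 on the minus strand. The start is that of the RefSeq transcript, and the gene spans given further on are those of GENCODE, which for NLRP3, AIM2, CASP4 and PYCARD begin further upstream, so these windows lie partly or wholly inside the spans. Capitals mark motif matches, except in PYCARD, where they mark CpG pairs, the usual sites of DNA methylation.
NLRP3: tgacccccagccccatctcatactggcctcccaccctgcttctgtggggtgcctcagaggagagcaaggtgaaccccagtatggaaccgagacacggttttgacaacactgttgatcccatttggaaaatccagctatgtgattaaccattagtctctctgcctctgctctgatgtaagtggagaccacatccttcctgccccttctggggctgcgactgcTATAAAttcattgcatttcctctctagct
AIM2: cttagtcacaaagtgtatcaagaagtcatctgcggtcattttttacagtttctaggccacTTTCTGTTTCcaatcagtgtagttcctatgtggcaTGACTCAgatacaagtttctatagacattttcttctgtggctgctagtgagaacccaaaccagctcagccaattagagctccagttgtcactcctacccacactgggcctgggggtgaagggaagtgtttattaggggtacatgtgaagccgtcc
CASP4: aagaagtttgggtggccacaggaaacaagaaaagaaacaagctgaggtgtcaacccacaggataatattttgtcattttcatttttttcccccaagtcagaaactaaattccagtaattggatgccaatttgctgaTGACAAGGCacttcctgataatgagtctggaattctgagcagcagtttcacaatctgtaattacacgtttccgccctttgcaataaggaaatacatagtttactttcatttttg
CASP5: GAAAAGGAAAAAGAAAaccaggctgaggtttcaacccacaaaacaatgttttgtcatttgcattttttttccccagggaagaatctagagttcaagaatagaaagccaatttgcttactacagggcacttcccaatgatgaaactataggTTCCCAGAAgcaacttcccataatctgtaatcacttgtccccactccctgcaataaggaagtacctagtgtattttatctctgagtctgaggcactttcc
PYCARD: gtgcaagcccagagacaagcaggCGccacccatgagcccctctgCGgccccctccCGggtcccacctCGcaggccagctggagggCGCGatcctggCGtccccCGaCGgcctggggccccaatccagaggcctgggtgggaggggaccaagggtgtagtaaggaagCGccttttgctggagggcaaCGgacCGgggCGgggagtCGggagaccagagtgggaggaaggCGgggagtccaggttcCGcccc

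Motifs were searched on both strands, and a match is a description of letters, not of a bound site. The NLRP3 window held a TATA box (TATAAA) from 29 to 24 bases before the start, a motif found in 10.7% of 35116 windows of the same length. The AIM2 window held an AP-1 motif (TGANTCA, in 6.57% of windows) and an interferon response motif (GAAANNGAAA, in 3.02%). The CASP4 window held an antioxidant response motif (TGACNNNGC, in 10.9%). The NF-κB consensus motif, present in 9.96% of all windows, had no match in any of the 5 sequences.

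The CASP4 and CASP5 windows are related to each other, with 174 identical bases among 231 aligned bases (75.3%). The CASP5 window held 2 overlapping interferon response motifs and a STAT motif (TTCNNNGAA, in 6.57% of windows) that the CASP4 window lacked. The PYCARD window was rich in G and C (71.2%) and held 16 CpG pairs, and 41% of all windows held at least as many. The NLRP3, AIM2, CASP4 and CASP5 windows held 3, 2, 2 and 0 CpG pairs, and 29.3% of all windows held 3 or fewer.

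NLRP3 (chromosome 1 from 247579458 to 247612410, GRCh37) encodes the sensor that reacts to potassium loss, crystals and many other signs of damage. Its counts were 1370 and 1205 with vehicle and 555 and 806 with Liq, or 33.3 and 32.2 CPM against 15.6 and 16.1 CPM. Both Liq samples were well below both vehicle samples, and the replicates of each group lay close together. The log2 fold change of Liq over vehicle was -1.05 (SE 0.09, adjusted p = 4.002e-09, edgeR's quasi-likelihood test). The 95% confidence interval of this change was -1.24 to -0.85, so the whole interval lay beyond a 1.5-fold decrease. A newer gene model that GENCODE places on the same strand shares 75% of the NLRP3 transcript, and that model was not analysed here.

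AIM2 (chromosome 1 from 159031389 to 159157633) encodes a sensor of DNA in the cytosol. Its counts were 684 and 764 with vehicle and 453 and 669 with Liq, or 16.6 and 20.4 CPM against 12.7 and 13.3 CPM. The Liq samples were lower than both vehicle samples, but the vehicle samples stood far apart for their level (SD 2.67 CPM, mean 18.5 CPM). Those of NLRP1 and CASP4 had SDs of 2.37 and 2.38 CPM at much higher means of 69.2 and 73.2 CPM. The log2 fold change of AIM2 was -0.50 (SE 0.11, adjusted p = 0.001308, edgeR), which is under 1.5-fold. It rested partly on vehicle replicate 2, since without that sample the change was -0.35 (adjusted p = 0.09882, edgeR), whereas without vehicle replicate 1 it was -0.65 and beyond 1.5-fold.

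NLRP1 (chromosome 17 from 5402735 to 5522744) encodes the sensor that is held in check by the peptidases DPP8 and DPP9. It was measured at 67.5 and 70.9 CPM with vehicle and 79.4 and 72.3 CPM with Liq. The groups did not overlap, but their means differed by less than the gap between the Liq samples, and the log2 fold change of 0.13 did not pass the test (95% CI -0.03 to 0.30, adjusted p = 0.2374, edgeR). This interval leaves out a 1.5-fold change in either direction. Within each sample, which needs no normalization, NLRP3 had 0.494 and 0.454 counts for each NLRP1 count with vehicle and 0.197 and 0.222 with Liq.

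NLRC4 (chromosome 2 from 32449522 to 32490801), the sensor of bacterial flagellin and secretion systems, had 1 count in each vehicle sample and 2 and 0 counts in the Liq samples. PYCARD (chromosome 16 from 31212807 to 31214771), the adaptor that links sensors to caspase-1, had 0 counts in all 4 samples. At this depth its level was at most 0.079 to 0.111 RPKM, which are CPM per 1000 bases of transcript. Neither gene could be tested. The antisense gene PYCARD-AS1 overlaps 39.8% of the PYCARD transcript. It was not found among the counted genes, under this symbol or its listed synonyms. The strand setting of the counting is not given in the sources used here.

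**Figure D1:**
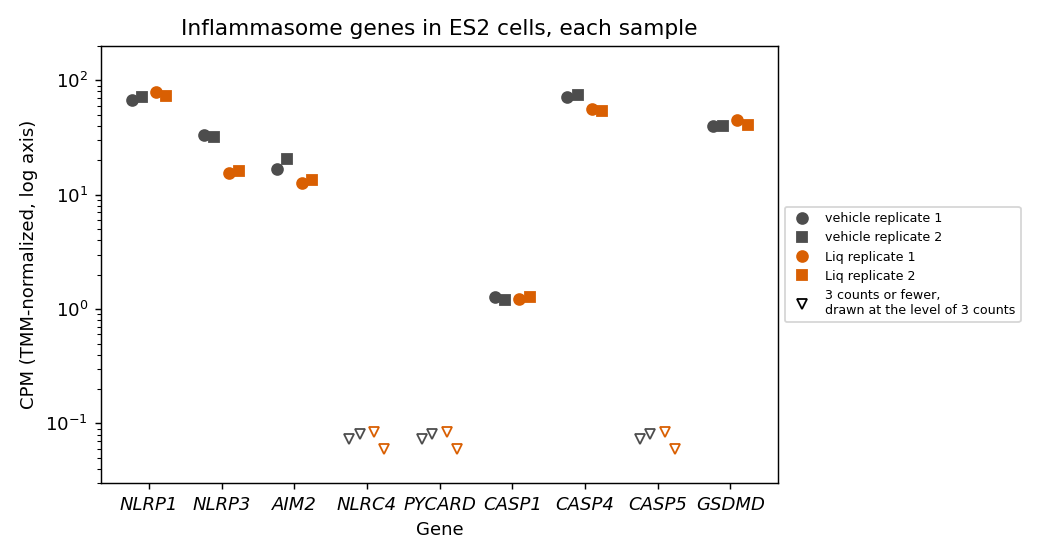
CPM of the 9 genes in each sample on a log axis, with circles for replicate 1, squares for replicate 2, grey for vehicle and orange for Liq; open triangles mark 3 counts or fewer, drawn at the level of 3 counts in that library. NLRP3, AIM2 and CASP4 sit lower in both Liq samples, and NLRC4, PYCARD and CASP5 are under the limit of 3 counts everywhere.

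The inflammatory caspase genes lie side by side on chromosome 11 but were found at very different levels. CASP4 (chromosome 11 from 104813593 to 104840093), the lipopolysaccharide-binding caspase, had 2941 and 2804 counts with vehicle and 1981 and 2731 with Liq, or 71.5 and 74.9 CPM against 55.7 and 54.4 CPM. Both Liq samples were below both vehicle samples. The log2 fold change was -0.41 (SE 0.08, adjusted p = 0.0003663, edgeR), with a 95% confidence interval of -0.57 to -0.25 that stayed under 1.5-fold.

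CASP1 (chromosome 11 from 104896124 to 104905977), which encodes the caspase that matures IL-1β, had 52 and 45 counts with vehicle and 44 and 64 with Liq, or 1.27 and 1.20 CPM against 1.24 and 1.28 CPM. The groups overlapped. The log2 fold change was 0.03, and with so few counts the interval was wide (95% CI -0.46 to 0.52, adjusted p = 0.9472, edgeR). For each CASP1 count there were 56.6 and 62.3 CASP4 counts with vehicle and 45.0 and 42.7 with Liq.

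CASP5 (chromosome 11 from 104864962 to 104893895), a close relative of CASP4 that lies between CASP4 and CASP1, had 0 counts in all samples. Its neighbors CASP12 and CARD18 also had 0 counts, and CARD16, which encodes a decoy made of the caspase-1 recruitment domain, had 1 to 7. CASP1 and CARD16 have near-identical stretches, so reads that align to both were left out of the counts and the CASP1 and CARD16 values are uncertain.

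GSDMD (chromosome 8 from 144635377 to 144645232) encodes gasdermin D, the pore protein that is cut by caspase-1 and caspase-4. It had 1636 and 1481 counts with vehicle and 1612 and 2061 with Liq, or 39.8 and 39.6 CPM against 45.3 and 41.1 CPM. Here too the means differed by less than the gap between the Liq samples, and the log2 fold change of 0.12 did not pass the test (95% CI -0.06 to 0.30, adjusted p = 0.3292, edgeR). For each GSDMD count there were 1.80 and 1.89 CASP4 counts with vehicle and 1.23 and 1.33 with Liq.

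**Figure D2:**
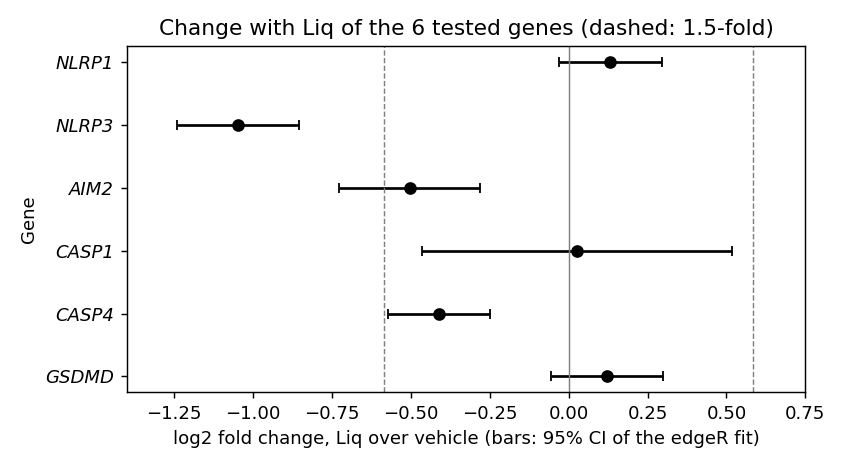
log2 fold change of Liq over vehicle for the 6 tested genes; points are edgeR estimates from 2 samples per group, bars are 95% confidence intervals and dashed lines mark 1.5-fold. The interval of NLRP3, from -1.24 to -0.85, lies wholly beyond the line, those of AIM2 and CASP4 lie below 0, and those of NLRP1, CASP1 and GSDMD include 0.

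Levels of different genes were compared per length, as RPKM over the main transcript of each gene. With vehicle, CASP4 was highest at 56.5 RPKM, followed by GSDMD at 23.0, AIM2 at 13.3, NLRP1 at 12.3, NLRP3 at 7.82 and CASP1 at 0.618. AIM2 and NLRP1 could not be ordered with vehicle, since their samples overlapped (11.9 and 14.6 RPKM against 12.0 and 12.6). With Liq the order was CASP4 at 42.5 RPKM, GSDMD at 25.1, NLRP1 at 13.5, AIM2 at 9.35, NLRP3 at 3.78 and CASP1 at 0.629, and no neighbors overlapped. Thus AIM2 stood below NLRP1 with Liq in both samples (9.14 and 9.56 RPKM against 14.2 and 12.9). This order depends on the lengths used, 1394 bases for AIM2 and 5610 bases for NLRP1, and other transcripts were not tried.

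Of the 6 tested genes, 1 was lower and 0 were higher past both thresholds, a 1.5-fold change and an adjusted p-value under 0.05. Over all 13546 tested genes the shares were 2.16% lower and 4.29% higher. Without a fold threshold, 3 of the 6 were lower (NLRP3, AIM2 and CASP4) and 0 were higher, against 11.3% and 12.6% of all tested genes. The CPM values of vehicle and Liq did not overlap in 5 of the 6 genes, which happened in 61.7% of all tested genes. The median log2 fold change was -0.19 over the 6 genes and 0.0062 over all tested genes. Because the genes were chosen with earlier results known, no test was made over the group. When offsets that follow the expression level replaced a single factor per library, the genome-wide calls shifted from 293 lower and 581 higher to 394 lower and 354 higher, while NLRP3 was called lower with both.

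The pattern of NLRP3 over the 4 samples was compared with that of 12219 other tested genes of at least 1 CPM, by the distance between log2 CPM profiles centered on their own means. The nearest were LETM2 (distance 0.020, log2 fold change -1.04), which encodes a mitochondrial inner membrane protein, CDKN1A (0.044 and -1.08), the cyclin-dependent kinase inhibitor p21, and BHLHE40 (0.066 and -1.08), a transcriptional repressor. All 3 were lower in both Liq samples, which follows from how they were picked.

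Around these genes, 30 other sensors, inhibitors and upstream regulators were listed, of which 14 were tested. Past both thresholds 1 of these was lower and 2 were higher, against 2.16% and 4.29% of all tested genes. TXNIP, which encodes the thioredoxin-binding protein known to bind NLRP3, was at 78.8 and 77.9 CPM with vehicle and 31.6 and 33.0 CPM with Liq (log2 fold change -1.28, SE 0.08, adjusted p = 5.333e-12, edgeR). P2RX7, which encodes the ATP-gated channel that lets potassium out of the cell, had 24 and 20 counts with vehicle and 59 and 84 with Liq (log2 fold change 1.57, SE 0.27, adjusted p = 9.626e-05, edgeR). TRIM16, a ubiquitin ligase, was at 9.46 and 9.80 CPM with vehicle and 19.5 and 19.7 CPM with Liq (log2 fold change 1.02, SE 0.10, adjusted p = 3.429e-08, edgeR). Thus TXNIP fell as NLRP3 did, and P2RX7 and TRIM16 rose.

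The other DNA sensor of the family, IFI16, was lower by less than 1.5-fold, at 467 and 484 CPM with vehicle and 388 and 417 CPM with Liq (adjusted p = 0.007963, edgeR). The same was true of DPP9, at 300 and 293 CPM against 260 and 240 CPM (adjusted p = 0.008699, edgeR), and of HSP90AB1, which encodes a chaperone of the HSP90 family (log2 fold change -0.23, adjusted p = 0.00186, edgeR). NEK7, the kinase that NLRP3 needs for assembly, had a log2 fold change of -0.19 that did not pass the test (adjusted p = 0.08189, edgeR), and CARD8 one of 0.05 (adjusted p = 0.7468, edgeR). Of the 16 genes that were not tested, 9 had 0 counts throughout, among them NLRP2, NLRP7 and MEFV, and NAIP, the partner of NLRC4, had 1 or 2 counts. NAIP has near-identical copies in the genome and is undercounted.

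Of 18 cytokine substrates, receptors and pore proteins, 12 were tested. Past both thresholds 2 of these were lower and 1 was higher, against 2.16% and 4.29% of all tested genes. IL1B was at 427 and 418 CPM with vehicle and 82.0 and 80.7 CPM with Liq, so the log2 fold change was -2.38 (SE 0.07, adjusted p = 4.243e-19, edgeR). IL37, an anti-inflammatory cytokine of the IL-1 family, had 22 and 20 counts with vehicle and 2 and 6 with Liq (log2 fold change -2.48, SE 0.52, adjusted p = 0.0009535, edgeR). The other main substrate of caspase-1, IL18, had 0 to 2 counts per sample and was not tested. IL1A had 37 and 52 counts with vehicle and 25 and 50 with Liq, and the groups overlapped.

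Among the gasdermins, GSDMB had 129 and 177 counts with vehicle and 248 and 265 with Liq (log2 fold change 0.63, SE 0.17, adjusted p = 0.00779, edgeR). The GSDMB call was lost without vehicle replicate 1 (0.36, adjusted p = 0.2445, edgeR), and without Liq replicate 1 its change was under 1.5-fold (0.43). GSDME, another gasdermin, listed under its older symbol DFNA5, had 81.5 and 79.7 CPM with vehicle and 90.8 and 92.1 CPM with Liq and did not pass the test (adjusted p = 0.07803, edgeR). NINJ1, which ruptures the membrane after the pores have formed, had a log2 fold change of -0.0069 (adjusted p = 0.9685, edgeR).

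Priming is the step in which receptors such as the Toll-like receptors raise the mRNA of NLRP3 and IL1B through NF-κB. Of 22 genes of this step, 18 were tested. Past both thresholds 0 of these were lower and 1 was higher, against 2.16% and 4.29% of all tested genes. Below 1.5-fold, 5 were lower with an adjusted p-value under 0.05, namely IRAK1 (log2 fold change -0.34), MYD88 (-0.27), NFKB1 (-0.38), NFKBIA (-0.36) and TNFAIP3 (-0.39). Without a fold threshold, 11.3% of all tested genes were lower and 12.6% were higher. NFKB1, NFKBIA and TNFAIP3 are themselves targets of NF-κB, whose part in these changes was not tested. The gene called higher, IRAK3, a brake on Toll-like receptor signaling, had 8 and 7 counts with vehicle and 13 and 40 with Liq (log2 fold change 1.66, SE 0.46, adjusted p = 0.009874, edgeR). The IRAK3 call was lost without Liq replicate 2 (0.92, adjusted p = 0.3193, edgeR), without vehicle replicate 1 (adjusted p = 0.06632, edgeR) and without vehicle replicate 2 (adjusted p = 0.06467, edgeR). Receptor mRNAs ranged from TLR2 and NOD2, each at 0 or 1 count, through TLR4 at 15 to 22 counts, to NOD1 at 306 to 455 and TLR6 at 340 to 508 counts.

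Of 10 genes that comprise the other caspases and CFLAR, which encodes a regulator of caspase-8, 8 were tested and 0 passed both thresholds. Past both, 2.16% of all tested genes were lower and 4.29% were higher. CFLAR was at 40.3 and 43.9 CPM with vehicle and 33.4 and 32.7 CPM with Liq, lower by less than 1.5-fold (log2 fold change -0.35, SE 0.09, adjusted p = 0.004795, edgeR). Of 17 guanylate-binding proteins and interferon regulators, 14 were tested and 0 passed both thresholds. IFNGR2, a chain of the interferon γ receptor, had the smallest p-value, at 89.7 and 85.6 CPM with vehicle and 60.0 and 63.9 CPM with Liq (log2 fold change -0.50, SE 0.08, adjusted p = 3.224e-05, edgeR). GBP1, which helps caspase-4 to reach bacterial lipopolysaccharide, went the other way (log2 fold change 0.49, adjusted p = 0.01678, edgeR), as did STAT2 (0.27, adjusted p = 0.02122, edgeR). IRF1 and IRF2, known activators of CASP1 and GSDMD transcription, had log2 fold changes of -0.01 and -0.09 and did not pass the test.

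The median log2 fold changes of these 5 lists were -0.11 for sensors and regulators, 0.01 for substrates and pore proteins, -0.08 for priming genes, -0.07 for other caspases and -0.02 for interferon-linked genes. The same value over all tested genes was 0.0062.

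**Figure D3:**
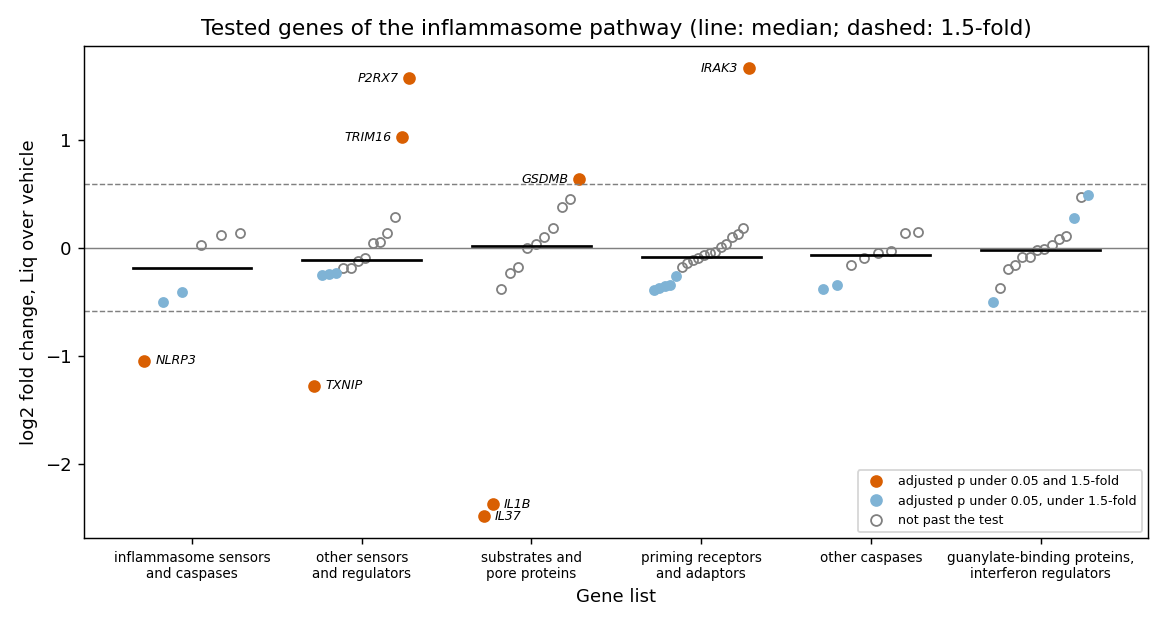
log2 fold change of Liq over vehicle for each tested gene of the 6 lists, with the median of each list as a black line and 1.5-fold as dashed lines; orange points passed both thresholds, blue points the adjusted p-value only. NLRP3, TXNIP, IL1B and IL37 stand below the dashed line, and P2RX7, TRIM16, GSDMB and IRAK3 above it.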

How the data were processed

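Total RNA from ES2 cells (2 vehicle and 2 Liq samples) was prepared as TruSeq libraries and read as single ends. The authors aligned the reads to hg19 with TopHat2 2.0.8b, as the submitters' processing notes name it, and counted them per gene with HTSeq. For each sample the authors deposited the raw counts, which were not normalized or filtered. Reads that aligned to more than 1 place (35.6% to 36.2% of all reads tallied) were given to no gene. The tally lines were left out of library sizes and tests.

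Genes were filtered with filterByExpr (minimum count 10, minimum total 15), which left 13546 of 23228. After TMM normalization, the quasi-likelihood test of edgeR 4.0.16 in R 4.3.3 was used to compare Liq with vehicle, with no block for the replicate number. Adjustment of p-values followed Benjamini and Hochberg over all tested genes. The SE is the size of the log2 fold change divided by the square root of F. Genes were called at 1.5-fold and an adjusted p-value under 0.05. The fit, tested on simulated data, recovered 199 of 200 genes changed by 2-fold. These were drawn from genes with more than 200 counts over all samples, and every simulated gene was given the same spread. Recovery of smaller changes or of genes with fewer counts was therefore not tested. With 2 samples against 2, an exact permutation test cannot give a p-value below 0.3333. Replicates differed by more than sampling noise (chi-square per degree of freedom 6.33 and 11.1).

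The 9 genes and the lists were chosen with earlier results of these data known. Named were the 9 genes, the called genes of each list or the one with the smallest p-value, and the 3 genes nearest to the leading one; other listed genes were named for their role after their values were seen, and 2 listed genes are not reported here. Positions and transcript lengths are those of GENCODE 44 on GRCh37. RefSeq upstream sequences were searched for 6 of the 9 genes, and those of NLRC4 are not shown. None was used for NLRP1, CASP1 or GSDMD. The dose is taken from the methods of the study. Alternatives were other normalizations, filters, thresholds, DESeq2 1.42.0, a replicate block and each sample left out.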

Additional observations from a re-analysis of the deposited data

How the results depend on the processing

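NLRP3 was called lower under every alternative that was run, with log2 fold changes of -1.07 to -1.02. CASP4 stayed lower with an adjusted p-value under 0.05 in all of them (-0.44 to -0.38), and NLRP1 and GSDMD stayed above 0 without passing the test. The value of AIM2 ranged from -0.65 to -0.35 when 1 sample was left out and lost its significance without vehicle replicate 2. CASP1 ranged from -0.0084 to 0.065 when 1 sample was left out and was -0.17 with loess offsets (span 0.3, added after the data had been seen), so it has no direction. The number of the 9 genes called lower was 1 to 2 when 1 sample was left out and 3 without a fold threshold.

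Among the pathway lists, dropping the fold threshold gave 4 lower genes among other sensors and regulators and 5 among priming genes. It gave 2 among other caspases and 1 among interferon-linked genes, with 2 higher among the last. Over all tested genes, 11.3% were then lower and 12.6% higher. The count of lower substrate genes was 1 with at least 10 counts in every sample, a filter that removes IL37. GSDMB, the 1 higher substrate gene, was lost with the DESeq2 Wald test, at 2-fold and with loess offsets, leaving 0, and the count was 0 to 1 when 1 sample was left out. IRAK3, the 1 higher priming gene, was lost with the DESeq2 Wald test and with at least 10 counts in every sample, leaving 0, and the count was 0 to 1 when 1 sample was left out. Interferon-linked genes called higher were 0 to 1 when 1 sample was left out (GBP2 without Liq replicate 1 and GBP1 without Liq replicate 2). The cause of these shifts was not tested.

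Of all tested genes, 874 were called, against 540 with the DESeq2 Wald test, 328 at 2-fold and 3245 without a fold threshold. With the replicate number as a block 898 were called, of the 9 genes 1 was lower as before, and no list count moved. The sources do not say whether samples with the same number share a culture or day. The correlation between their deviations was 0.129. Genes with few counts per sample, such as CASP1 (44 to 64), P2RX7 (20 to 84), IL37 (2 to 22) and IRAK3 (7 to 40), are limited by depth. Single-sample values weigh heavily with 2 samples per group.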
